A study of Mus musculus with 35 samples.

Results

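A total of 12 microarrays labelled SP single cell (cells A to L) were compared with 5 arrays labelled SCE, for single-cell-equivalent (SCE A to E). Their labels alone set their groups, and they make up 17 of the 35 arrays of the series. The other 18 arrays, made from 10 cells each, were not analysed here. All 17 arrays came from sorted bone marrow side population (SP) cells of male C57Bl/6 CD45.1 mice aged 7 to 9 weeks, taken from the tip of the SP tail and gated to carry Sca-1 and to lack Gr-1. No treatment or allele set the groups apart. Each SP single cell array began with 1 sorted cell lysed in its own well. For the SCE arrays, 40 SP cells were lysed together in 160 µl of buffer, and every array began with a 4 µl aliquot, equivalent in RNA to 1 cell. Marrow for an experiment was taken from one mouse, and whether the cells and the lysate came from the same mouse or sort is not given in the sources used here. Mouse, sort and the lysing of cells together in place of one by one cannot be told apart from the group. The p-values below measure the spread among these arrays, between cells and their amplifications in one group and between amplifications of a single lysate in the other, and no spread between mice. The letters name arrays and pair none of them. Cell E is a single cell and not one of the SCE arrays.

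Side population cells pump out the Hoechst dye through the transporter Abcg2, and in mouse marrow this property is rich in long-term hematopoietic stem cells. Such cells are mostly quiescent and can give rise to every blood lineage. Transcription factors such as Lmo2, Lyl1 and Tal1 act in them, and the chemokine receptor Cxcr4 holds them in the marrow niche. A single cell carries few copies of most transcripts, so a message can be missed during cDNA synthesis, and the SCE arrays show how far levels spread when every aliquot is drawn from the same lysate.

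Levels are given as log2 of the deposited intensity, and a probe set was called detected at a log2 level of 9 or more. Of 12422 probe sets that were not controls, 4659 were detected on at least 1 of the 17 arrays and were tested. The single cells had 1300 ± 81.8 probe sets detected (SD, n = 12), from 1194 in cell B to 1489 in cell K, against 1477 ± 78.7 (SD, n = 5), from 1351 to 1563, on the SCE arrays. The difference of -176.9 had p = 0.00129 in a two-sided exact permutation test over the 6188 splits of the arrays, whose smallest possible p is 0.000162. At a detection level of 8 the difference was -124.5 with exact p = 0.425, so it depended on the level chosen. At a level of 10 it was -93.25 (exact p = 0.0446), and with arrays scaled to the spike-in controls -517.8 (exact p = 0.0191). The single cells also resembled each other less, with a mean pairwise Pearson r of 0.392 over their 66 pairs, against 0.457 over the 10 SCE pairs (exact permutation p = 0.000162, the smallest the design can give). Among cells r ran between 0.333 and 0.446, and among SCE arrays between 0.431 and 0.481. Over the 60 pairs of a cell and an SCE array the mean was 0.411. These r values were over the 4659 tested probe sets. With no filter the mean r was 0.513 among cells and 0.594 among SCE arrays (exact permutation p = 0.00582). Spike-in controls averaged log2 levels of 13.32 (cell K) to 15.72 (cell D) on the single-cell arrays and 13.46 to 14.28 on the SCE arrays. A control probe set for the 3′ end of β-actin was at intensities of 60.3 in cell B and 57.5 in cell G, against 1224 to 30049 in the other cells and 10075 to 19510 on the SCE arrays, although the Actb probe set itself was detected on all 17 arrays. Without cells D and G the difference in detected probe sets was -175.5 and the difference in mean r -0.05, and without cells B and G they were -166.2 and -0.06. Wells that had amplified were picked by a blot for Gapdh, so the presence of that gene is no finding.

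Lmo2, a bridging factor in the stem cell transcription complexes, was detected in 12 of 12 cells and on all 5 SCE arrays. Its level was 9.83 at the lowest, 10.88 at the median and 11.44 at the highest in the cells, against 11.32, 12.42, 10.27, 10.26 and 10.53 on the SCE arrays. These groups overlapped, with a difference of -0.25 (limma adjusted p = 0.962). Cxcr4 behaved otherwise and was detected in 5 of 12 cells (B, C, D, E and J) and on all 5 SCE arrays. It was at 4.39, 8.34 and 11.86 in the lowest, median and highest cell, against 9.59, 9.60, 10.16, 10.77 and 9.51 on the SCE arrays, so cells lay on both sides of the narrow SCE range. The SD was 2.56 in the cells and 0.54 on the SCE arrays. Neither its mean (-1.95, adjusted p = 0.864) nor its spread (mean absolute deviation larger by 1.78, adjusted p = 0.138) passed the test over all probe sets.

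Of 25 measured stem cell transcription factor genes, 15 were detected on some array, and Lmo2 alone was detected in every cell. Another 4 were detected in 4 to 8 cells and 10 in 1 to 3 cells. Lyl1, a basic helix-loop-helix partner of Lmo2, was detected by its brighter probe set in 7 cells and on all 5 SCE arrays. It had levels of 6.64, 9.64 and 14.70 in the lowest, median and highest cell, against 13.45, 14.79, 12.07, 14.15 and 13.51 on the SCE arrays. The larger spread in the cells narrowly missed the threshold (adjusted p = 0.0505). Nfe2, a factor of erythroid and megakaryocyte genes, was detected in 8 cells and on 4 SCE arrays. Meis1, a homeobox partner of Hox proteins, was detected in 5 cells and on 1 SCE array. Tal1 was detected in 3 cells (B, E and I) and Gata2 in 3 cells (A, B and I), and neither on any SCE array. Tal1 came close to the detection level on SCE A, at 8.94, and was at 2.20 to 8.34 on the other SCE arrays. Cbfb, the binding partner of the Runx factors, was detected in 8 cells at up to 13.30, against 12.22, 12.93, 11.50, 12.38 and 11.78 on the SCE arrays. None of these genes passed the test for the mean on the probe sets described here.

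Among stem cell surface and efflux genes, 24 were measured and 16 detected on some array, 2 of them in every cell. Abcg2, the transporter behind the sort itself, was detected in 7 of 12 cells (A, B, E, H, I, J and K) and on 3 of 5 SCE arrays. Its levels were 2.04, 10.15 and 12.33 in the lowest, median and highest cell, against 10.36, 2.96, 11.39, 10.97 and 8.48 on the SCE arrays, so both groups held arrays with a low and a high level. Tie1, an endothelial and stem cell receptor kinase, was detected in 7 cells and on all 5 SCE arrays, and Emcn, the sialomucin endomucin, in 6 cells and on 4 SCE arrays. Adgrg1, an adhesion receptor, and Eng, a co-receptor of the TGF-β family, were each detected in 11 cells and on all 5 SCE arrays. Flt3, a cytokine receptor kinase of early progenitors, was detected in 5 cells and on 1 SCE array, Cd34 in 2 cells and on 2, and Procr in 2 cells and on 1. Flt3 lay near the detection level on the SCE arrays, at 8.22 to 9.25, and its median in the cells was 8.89. Thy1 was detected in cell K alone. Kit was detected on no array, with its only probe set at 7.14 or below in every cell. The study found Kit message in part of its single stem cells by quantitative PCR, so this result does not show that the message was absent. Ly6a, which encodes Sca-1, had no probe set assigned to it alone. At the other end, Cd24a was at 11.15 to 12.51 in the cells, against 11.35, 11.99, 11.86, 11.64 and 11.14 on the SCE arrays. Ctla2b and Jund, an AP-1 factor, were likewise detected on all 17 arrays. The plot of levels by array shows this contrast.

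**Figure D1:**
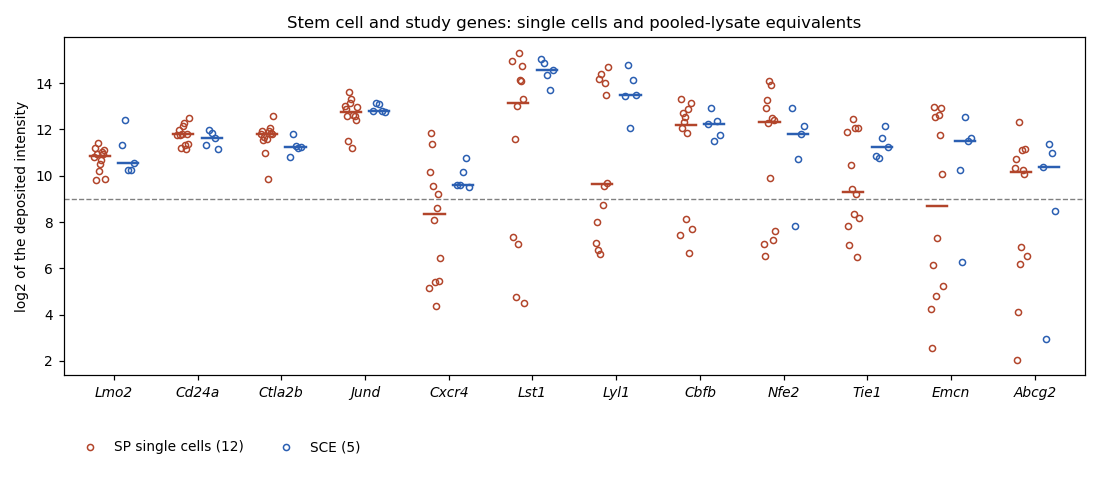
Log2 level of 12 stem cell genes and genes the study followed, side by side on a shared axis, with the 12 SP single cells left of the 5 SCE arrays for each gene. Each point is an array, the bar is the group median and the dashed line the detection level of 9. Lmo2, Cd24a, Ctla2b and Jund lie above the line in all 12 cells, whereas Cxcr4 (5 cells) and Abcg2 (7 cells) lie on both sides of it.

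Of all 8251 genes with a probe set of their own, 3617 were detected on some array, which is the background for the markers of other cell types. Of 20 T cell markers 4 were detected on some array, and the CD3 chains were on none. Of 15 B cell markers 2 were detected, of 6 NK cell markers none, of 12 stromal markers 1, and of 7 megakaryocyte markers 4. Of 20 granulocyte and monocyte markers 7 were detected, while Ly6g, the target of the Gr-1 gate, and Mpo, Elane and Itgam were on no array. Lyz2, the lysozyme of myeloid cells, was detected in 8 cells and on all 5 SCE arrays, and Prtn3, a neutrophil protease that early progenitors also carry, in 8 cells and on 4. Some markers were bright in a single cell. Ctsw, a cathepsin of cytotoxic cells, reached 12.75 in cell C and was detected on 1 SCE array, and Cd79b, a subunit of the B cell receptor, reached 12.79 in cell F and was detected on 1 SCE array. S100a8, a neutrophil calcium-binding protein, was detected in cells E, J, K and L, and Vwf in cells A and K. These bright markers were singled out after their values were seen.

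Detection differed widely from cell to cell. Of the 4659 tested probe sets, 167 were detected on all 17 arrays, 184 in all 12 cells and 441 on all 5 SCE arrays. Conversely, 1378 were detected in only 1 cell, and of these 930 were on no SCE array. The 12 cells together reached 4215 probe sets, any 5 cells 3060 on average (2913 to 3233), and the 5 SCE arrays 3139. Among probe sets detected in at least 1 cell, the more cells a probe set was detected in, the more SCE arrays detected it. Those detected in 1 cell were detected on a mean of 9.49% of SCE arrays, the 225 detected in 6 cells on 56.4%, and the 184 detected in all cells on 97.9%. The 444 detected in no cell were tested only because at least 1 SCE array detected them, and were detected on a mean of 24.1%. Cell G had 148 probe sets detected in no other cell, and the other cells 48 to 92 each.

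**Figure D2:**
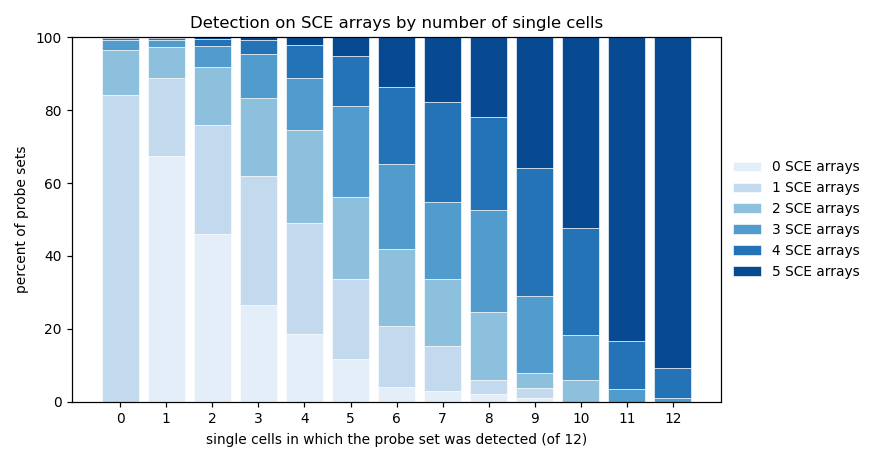
Percent of tested probe sets (vertical axis) detected on 0 to 5 SCE arrays (stacked colours), by the number of SP single cells that detected them (horizontal axis, 0 to 12). Of the probe sets detected in 1 cell, 67.5% were on no SCE array and 0.218% on all 5, whereas of those detected in all 12 cells 90.8% were on all 5.

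No probe set passed Fisher's exact test of the number of arrays with detection, in either direction (percent called 0 of 4659 for higher and 0 for lower, smallest adjusted p = 0.753). With 12 cells and 5 SCE arrays the smallest possible p is 0.000162, which was reached by Hbb-b2 and gave that adjusted value, so 1 fully separated probe set could not pass on its own. At an unadjusted p under 0.05, 9 were detected more often and 70 less often in the cells. Naa60, an N-terminal acetyltransferase, was detected in 9 cells and on no SCE array (exact p = 0.00905, unadjusted). It was at 7.49, 10.00 and 12.17 in the lowest, median and highest cell, against 8.36, 7.67, 6.50, 7.22 and 6.89 on the SCE arrays. The deacetylase gene Hdac1 and the chromatin assembly factor gene Chaf1b were each detected in 8 cells and on no SCE array (exact p = 0.0294, unadjusted). The SCE levels of Chaf1b lay just under the detection level, at 8.22 to 8.81. Those of Hdac1 spread more widely below it, at 5.89, 8.93, 8.89, 7.97 and 8.78. Jag2, a Notch ligand, was detected in 7 cells and on no SCE array, where it was at 7.69, 8.48, 8.60, 8.49 and 8.89. On the lower side stood Hbb-b2 and Cd74, described with the mean levels, and Eif4e2, Dgcr2 and Timm8b, each in 2 cells and on all 5 SCE arrays (exact p = 0.00339, unadjusted). Timm8b is an import chaperone of mitochondria and Eif4e2 a cap-binding protein. Eif4e2 lay just above the detection level on the SCE arrays, at 9.31 to 9.84, with a median of 8.47 in the cells.

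In mean level, no probe set was higher in the single cells at a limma adjusted p under 0.05 (percent called 0) and 2 of 4659 were lower (percent called 0.0429). At an unadjusted p under 0.05, 82 were higher and 183 lower. Both that passed belonged to adult hemoglobin. A probe set shared by the β-globin genes Hbb-bt, Hbb-bs, Hbb-b2 and Hbb-b1 was detected in 1 cell, at 5.39, 7.01 and 10.48 in the lowest, median and highest cell, against 11.77, 12.53, 11.72, 11.68 and 11.83 on the SCE arrays. Every cell lay below every SCE array, and the difference was -4.87 (SE 0.686, adjusted p = 0.00439). Hba-a1, an α-globin gene, was detected in cells C, G and J. Its level was 5.64, 7.98 and 10.39 in the lowest, median and highest cell, against 11.46, 12.68, 12.61, 13.11 and 13.38 on the SCE arrays, again without overlap (-4.51, SE 0.746, adjusted p = 0.0189). Without SCE B, SCE C or SCE E the difference was nearly as large (-4.50, -4.52 and -4.33) but no longer passed (adjusted p = 0.0891, 0.0567 and 0.0514). The probe set of Hbb-b2 alone was at 8.42 or below in every cell, against 9.33, 9.49, 9.48, 9.47 and 9.68 on the SCE arrays, and its mean did not pass (-3.24, adjusted p = 0.308). It was the only probe set detected in no cell and on all 5 SCE arrays. The other erythroid genes Klf1, Epor, Alas2, Tfrc, Slc4a1, Car1, Epb42, Rhd and Rhag were detected on no array, and Car2, a carbonic anhydrase, in 1 cell and on 1 SCE array. Outside the globins, the erythroid markers were thus below detection on nearly every array of both groups. Between cells and SCE arrays, the only probe sets without overlap were these 3 below (percent called 0.0644) and 4 above (percent called 0.0859). Among those 4 were the ribosomal protein gene Rps24 and the RNA helicase gene Ddx17, while the others were assigned to no single gene. The gap was very small for both named genes. The lowest cell was at 12.491 for Rps24 and 8.049 for Ddx17, against 12.488 and 8.041 on the highest SCE array. Ddx17 was detected in 1 cell and on no SCE array.

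MHC class II genes, which present antigen and mark B cells, macrophages and dendritic cells, were looked at after their values were seen. All 7 detected probe sets of the class had a negative difference, as had 2481 of all 4659 tested probe sets. Their median was -1.50, against -0.09 over all tested probe sets. None passed the test for the mean. Cd74, the invariant chain, was detected in cell D alone, at 6.24, 7.89 and 10.60 in the lowest, median and highest cell, against 11.16, 11.57, 9.01, 9.93 and 10.60 on the SCE arrays (-2.60, adjusted p = 0.308). H2-Aa was detected in cells A and E and on 4 SCE arrays. H2-Ab1 was detected in no cell and on 3 SCE arrays and H2-Eb1 in no cell and on 2. H2-DMa counted with more than 1 probe set, detected in 6 cells and on 4 SCE arrays and in 5 cells and on 3. H2-Oa was detected in 1 cell and on 2 SCE arrays. Of the 15 B cell markers, 0 to 1 were detected in a cell and 0 to 1 on an SCE array, and of the 20 granulocyte and monocyte markers 0 to 3 in a cell and 1 to 3 on an SCE array. The part of other marrow cells in these levels was not tested.

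**Figure D3:**
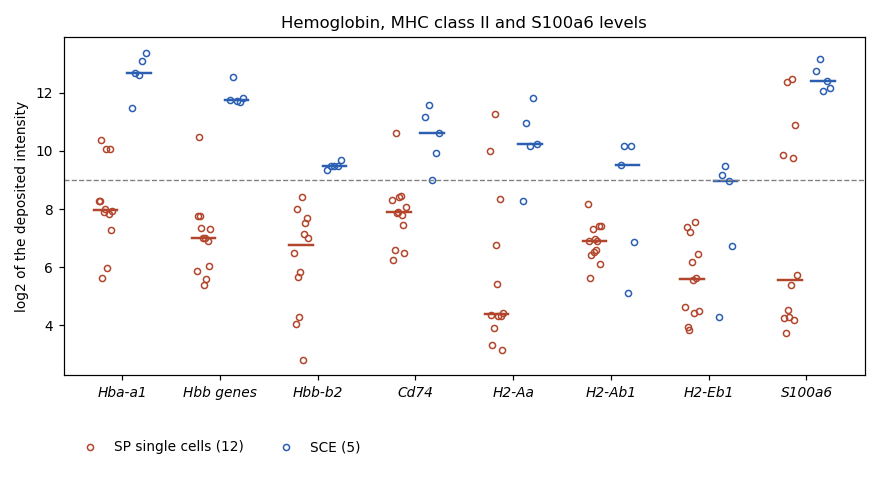
Log2 level of hemoglobin genes, MHC class II genes and S100a6 on each array, with the 12 SP single cells left of the 5 SCE arrays; points are arrays, bars are medians and the dashed line is the detection level of 9. The shared β-globin set, Hba-a1 and Hbb-b2 lie lower in every cell than on any SCE array, while S100a6 is split between 5 cells above the line and 7 below it.

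The genes next in order did not pass. Hes6, a helix-loop-helix factor of the Hes family, was detected in no cell, at 2.66, 5.11 and 7.07 in the lowest, median and highest cell, against 10.69, 11.15, 10.59, 10.65 and 4.98 on the SCE arrays (-4.74, adjusted p = 0.0768). SCE E was the SCE array nearest the cells. With each array left out in turn, Hes6 passed without SCE E (-5.89, adjusted p = 0.000998), a removal that favours a difference, and without cell D (0.0381). A further probe set of Lyl1 was detected in 2 cells, at up to 9.97, against 12.09, 12.64, 8.30, 12.20 and 11.19 on the SCE arrays (-4.63, adjusted p = 0.107). It passed without cell D (adjusted p = 0.0356) or without SCE C (adjusted p = 0.0484). Desi1, a peptidase that acts on SUMO, was detected in no cell and on 4 SCE arrays (adjusted p = 0.156, and 0.00769 without SCE D, its SCE array nearest the cells). On the higher side, Hoxa5, a homeobox factor, was detected in 6 cells and on no SCE array. It was at 6.83, 8.61 and 10.28 in the lowest, median and highest cell, against 4.74, 4.54, 7.21, 5.60 and 6.59 on the SCE arrays (+2.76, adjusted p = 0.36). Rps28, a small-subunit ribosomal protein gene detected on all arrays, was at 11.42, 12.40 and 12.96 in the lowest, median and highest cell, against 10.89, 11.48, 10.90, 10.63 and 10.93 on the SCE arrays. The difference was +1.38 (adjusted p = 0.571), and Rps28 passed only when levels under 8 were raised to 8 (adjusted p = 0.0212) or with the pseudocount (adjusted p = 0.0404).

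Variation between arrays was compared first over the 167 probe sets detected on all 17 arrays, which entered through both groups alike. Their median SD was 0.592 in the cells and 0.449 on the SCE arrays, and 118 of the 167 (70.7%) had the larger SD in the cells. The other tested probe sets include 1520 that entered through cells alone and 444 that entered through SCE arrays alone, so their SDs were partly set by the filter. Spread was tested with limma on the absolute deviations from each group mean. In the cells 32 probe sets had a larger spread (percent called 0.687) and 19 a smaller one (percent called 0.408), while 351 and 281 did so at an unadjusted p under 0.05. With deviations from the group median in place of the mean, 5 and 0 passed, and those 5 were Emc10, Oga, Nhp2, Ift20 and Lig3. Most calls thus depended on that choice. Of the 32, 31 were detected in 4 to 8 cells, and 26 of these on all 5 SCE arrays. The remaining one was Nr4a2, an immediate early nuclear receptor, in 2 cells and on no SCE array. Probe sets on no SCE array, such as Nr4a2 and Psmc2, entered the test through the high cells that also widened their spread.

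Emc10, a subunit of the complex that inserts proteins into the endoplasmic reticulum membrane, had the smallest p. It was detected in cells E, F, G, I, J and K, at 3.41, 10.29 and 14.35 in the lowest, median and highest cell, against 13.28, 13.36, 12.64, 12.95 and 14.10 on the SCE arrays. The cells split into high and low ones and the SCE arrays did not, and the mean deviation was larger by 4.15 (adjusted p = 0.000329). Oga, the enzyme that removes O-linked N-acetylglucosamine, was detected in cells A, C, D, E, H and K, at 5.87, 8.66 and 12.86 in the lowest, median and highest cell, against 11.38, 10.98, 11.39, 11.78 and 11.85 on the SCE arrays (adjusted p = 0.000467). Nhp2, a protein of the small nucleolar particles that also form telomerase, was detected in cells D, E, G, I, K and L, at 7.04, 9.88 and 14.22 in the lowest, median and highest cell, against 12.08, 12.52, 12.45, 12.55 and 12.06 on the SCE arrays (adjusted p = 0.00318). These genes thus had near-constant SCE levels and cells on both sides of the detection level. Lig3, a DNA ligase of base excision repair, was detected in cells B, C, D, H, K and L, at 3.02, 7.70 and 13.05 in the lowest, median and highest cell, against 11.22, 11.11, 9.58, 10.95 and 10.10 on the SCE arrays (adjusted p = 0.00661). Ift20, of intraflagellar transport, was detected in 6 cells (adjusted p = 0.00472).

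Further genes passed with the mean but not with the median as centre. Aldh2, the mitochondrial aldehyde dehydrogenase, was detected in cells C, D, E, F, H, J and K, at 3.56, 12.30 and 13.49 in the lowest, median and highest cell, against 12.27, 12.79, 13.52, 12.72 and 12.40 on the SCE arrays (adjusted p = 0.00318). Another probe set of Aldh2 was detected in 11 cells, all but L. It had the same call as this probe set in 8 of the 12 cells (r = 0.74), so the cells without Aldh2 differed by probe set. S100a6, the calcium-binding protein calcyclin, was detected in cells A, D, H, I and K, at 3.72, 5.56 and 12.48 in the lowest, median and highest cell, against 12.76, 13.16, 12.07, 12.39 and 12.16 on the SCE arrays (adjusted p = 0.00661). Hat1, a histone acetyltransferase, was detected in cells B, C, D, E, K and L (adjusted p = 0.00661). In Aldh2 and Hat1, on these probe sets, each cell was either well below the SCE arrays or near them. In S100a6, cells A, I and K lay between, at 9.86, 9.76 and 10.90. Wdr92 and Trir were each detected in 7 cells and on all 5 SCE arrays (adjusted p = 0.00804 and 0.00949).

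All 19 probe sets with a smaller spread in the cells were detected in at most 1 cell, 17 of them in none, and on 1 to 3 SCE arrays. Rufy1, an endosomal protein, was at 2.98 to 5.98 in the cells, against 11.65 on SCE C, 11.16 on SCE D and 4.05 to 4.83 on the other SCE arrays (deviation smaller by 3.10, adjusted p = 0.00046). Nelfcd, of the complex that pauses RNA polymerase, was at up to 7.46 in the cells and was detected on SCE A and, at 12.04, on SCE D. Dohh, which completes the hypusine of eIF5A, was at up to 7.14 in the cells and at 10.74 on SCE A and 11.71 on SCE E. Il4ra, the interleukin 4 receptor, and Otub1, a deubiquitinase, were each detected in no cell and on SCE D and SCE E, and Nlrx1 in no cell and on SCE B and SCE D. These probe sets entered the test through the few high SCE arrays that also widened their SCE spread. When detection on at least 4 arrays was required, 36 probe sets had a larger spread in the cells and 0 a smaller one.

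In a variance decomposition with a technical part common to both groups and a biological part in the cells only, at least 0.5 of the variance was assigned to the biological part for 41.6% of the 4215 probe sets detected in a cell (median 0.355). This is a description with no test. The probe sets entered through the cells, the group given the biological part, and the 444 detected on SCE arrays alone were left out. With a separate mean for each group the 41.6% became 46.2%, and with levels under 8 set to 8 it became 54.6%. In the first fit the share was 28.8% for probe sets detected in all 12 cells, 67.3% for those in 9 to 11 cells, 44.9% for those in 4 to 8 and 39.9% for those in 1.

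Among groups of genes by function, ribosomal proteins were detected on nearly every array. Of 23 tested cytosolic ribosomal protein genes, 21 were detected in all cells and 22 on all SCE arrays, among them Rpl41 and Rpl10a, with a median SD of 0.557 in the cells and 0.410 on the SCE arrays. These SDs were close to the 0.592 and 0.449 of all probe sets detected on the 17 arrays, so they went with constant detection. Over all 3617 tested genes 110 were detected in all cells, 986 in 4 to 8 cells, 322 on all SCE arrays and 1133 on no SCE array, and the median SDs were 2.00 in the cells and 1.64 on the SCE arrays. The median difference of the ribosomal genes was +0.53, against -0.11 over all genes, with 19 of 23 positive and none passing the test. It was +0.36 over the 167 probe sets detected on all 17 arrays, so a positive shift was not particular to ribosomal genes. With arrays scaled to the spike-in controls the median of the ribosomal genes turned to -0.11, while that of all tested probe sets moved to -0.73. Proteasome genes, whose products degrade ubiquitin-tagged proteins, were mostly detected in some cells only. None of 33 was detected in all cells, 16 were detected in 4 to 8 cells and 6 on all SCE arrays, and the median SD was 2.51 in the cells and 1.74 on the SCE arrays. Of 49 oxidative phosphorylation genes, 9 were detected in all cells and 21 on all SCE arrays, with median SDs of 1.95 in the cells and 1.10 on the SCE arrays. Of 31 heat shock proteins and chaperones 2 were detected in all cells, with median SDs of 2.41 in the cells and 1.29 on the SCE arrays. Of 28 detected DNA repair genes none was in all cells, 4 were in 4 to 8 cells and 13 were on no SCE array. These counts are descriptions, and no group was tested against the other genes. In each of these groups at most 1 gene passed the spread test in the direction of a larger spread, such as Lig3 in DNA repair, Psmc2 in the proteasome and Ndufc1 in oxidative phosphorylation, against 28 of all 3617 genes. Psmc2 was detected in 4 cells and on no SCE array, so it entered the test through the same high cells that widened its spread. Among genes that the study had followed in single cells, Apex1, a repair endonuclease, was detected in cells H and K, Ercc2, a repair helicase, in 2 cells, Mcm7, of the replicative helicase, in cells A and K, and none of them on an SCE array. Pttg1, the securin, was detected in 2 cells and on 1 SCE array, Apoe in 5 cells and on 3 SCE arrays, and the splicing factor gene Srsf6 in 10 cells and on all 5. The importin gene Ipo4 was detected in 5 cells and on all 5 SCE arrays, and its spread was larger in the cells (adjusted p = 0.0199 with the mean as centre).

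To ask which genes went together across cells, the 114 probe sets detected in 4 to 8 cells and on all 5 SCE arrays were taken, a choice that used these same levels. Where a cell detected them the median level was 11.72, where it did not it was 6.76, and on the SCE arrays it was 11.31. Between log2 8 and 10 lay 17.5% of the cell values. Their cells averaged 1.92 below the SCE arrays on the log2 scale and 0.43 below them as a ratio of arithmetic means. Over their 6441 pairs the median r across 12 cells was 0.015, with the 1st and 99th percentiles at -0.66 and 0.66. A total of 9 pairs reached 0.8 and 12 fell to -0.8 or below. These correlations are descriptions over 12 cells that share the depth of each array. Psme1, an activator of the proteasome, and Mdh2, the mitochondrial malate dehydrogenase, had the highest r of 0.90 (Spearman's rho 0.79). Psmc3, a proteasome ATPase, and Lst1, a leukocyte transmembrane protein, had r = 0.86 and were detected in the same 8 cells (A, C, E, G, H, I, J and K). Another probe set of Psmc3 was detected in 5 cells and had r = 0.335 with this one, so the match held for the probe set used. Lst1 was at 4.52, 13.16 and 15.32 in the lowest, median and highest cell, against 15.06, 14.86, 14.37, 13.69 and 14.58 on the SCE arrays. The autophagy gene Gabarap went with the corepressor gene Ski (r = 0.85), Nhp2 with Prr13 (0.84) and with the zinc transporter gene Slc39a7 (0.82), and the kinase gene Matk with S100a13 (0.82). The S100a13 probe set used was detected in 6 cells, and another of that gene in 10 (r = 0.59 between them). Among these 114 probe sets, average-linkage clustering cut at r = 0.5 gave 45 clusters, the largest of 5 members, such as Cyc1, Lst1, Psmc3, Lsm7 and Tnfaip8. Genes detected in fewer than 4 cells, or missed on an SCE array, could not enter, so programs of such genes could not be seen here. With detection at 10 no pair reached 0.8. With the set chosen again without each cell in turn 20 to 31 pairs did, and the largest cluster had 6 to 11 members.

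Cxcr4 and Lmo2 were each set against 1407 probe sets detected in at least 4 cells. Nearest to Cxcr4 were Api5, an inhibitor of apoptosis (r = 0.84), Ssna1 (0.82), Mcfd2, a cargo receptor cofactor (0.80), the late endosome gene Rab7 (0.76) and Utp14a (0.74). Api5 was detected in 6 cells, including B, C, D, E and J, the cells that detected Cxcr4. Farthest were Fbxw5 (-0.87), Dnajb11 (-0.86) and Cdk2ap1 (-0.85). Nearest to Lmo2 were the ubiquitin-conjugating enzyme gene Ube2s (0.90), Rab10 (0.86), Mycbp2 (0.82), Ewsr1 (0.77) and Ociad1 (0.77), and farthest were 1810030O07Rik (-0.80), Bex1 (-0.80) and Furin (-0.72). The SD of Lmo2 was 0.52 in the cells and 0.93 on the SCE arrays. Its levels thus spread no more across the cells than between aliquots of a single lysate. With so many probe sets compared over 12 cells, values of this size occur in both directions for either gene.

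Some genes carried more than 1 probe set, which gave a second reading of the same cDNA. Over 67 such pairs of 65 genes, looked at after their values were seen, the median r across the 12 cells was 0.695 and 23 (34.3%) were at 0.8 or more. Over all 828828 pairs of the 1288 one-gene probe sets detected in 4 to 11 cells, from which these pairs were drawn, the median was -0.0005 and 0.145% reached 0.8. Hif1a, the hypoxia factor, had r = 0.98 between its probe sets, both detected in cells A, D, E, I and K, and Gpank1 had 0.95, with both detected in cells C, D, E, G and J. Romo1 and Krtcap2 (both 0.99) and Ndufb2 (0.95) also had the same call by both probe sets in all 12 cells. The other end held Ifnar2 (-0.36) and Hnrnpdl (-0.58). The likeness went with probe sets whose suffix marks possible shared probes: the 53 pairs with at least 1 such set had a median r of 0.739, against 0.022 for the 14 pairs of plain sets, of which Anapc13 alone reached 0.8 (0.90). The share of probes held in common was not tested.

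**Figure D4:**
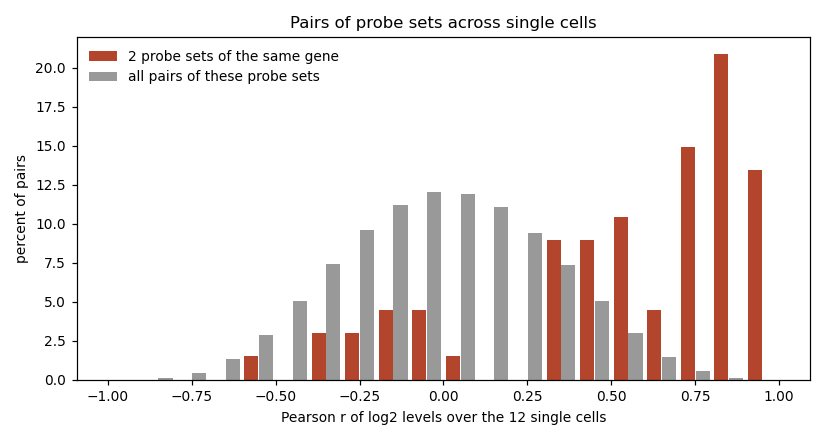
Percent of probe-set pairs (vertical axis) by Pearson r over the 12 SP single cells (horizontal axis), for the 67 pairs of the same gene and for all 828828 pairs. The same-gene pairs have their median at 0.695 and the pairs of all probe sets at -0.0005.

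Cell K had the most genes detected in several lists, among them those of proliferation, a pattern noticed in the data and not tested. It had 10 of 43 DNA replication genes detected, against 1 to 7 in the other cells and 2 to 3 on the SCE arrays, and 12 of 51 DNA repair genes, against 2 to 6 in the other cells and 4 to 7 on the SCE arrays. Of 49 genes of cyclins, kinases and mitosis, K and cell A had 11 each, against 3 to 7 in the remaining cells and 3 to 8 on the SCE arrays. It was also highest in splicing and RNA binding, with 28 genes against 16 to 24 in the other cells and 18 to 24 on the SCE arrays, in chromatin and Polycomb genes, with 15 against 6 to 13 and 8 to 14, and in nuclear import and export, with 12 against 3 to 11 and 4 to 9. Mki67, the proliferation antigen Ki-67, was at 13.13 in cell K and at 8.89 or below in the other cells, against 7.09 to 11.96 on the SCE arrays, where 1 detected it. Detected in K and on no other array were Pold1, the replicative polymerase δ (10.42), Lig1, the replicative ligase (10.37), Ccnd2, a G1 cyclin (10.89), Birc5, the mitotic protein survivin (10.94), and the repair genes Ercc5 (9.01) and Fancg (9.01). Other such genes were shared, as with Rfc5 of the clamp loader, at 12.13 in K and also detected in cell E, and Ccna2, at 9.20 in K and 11.14 in cell J. K also had the most probe sets detected of any cell (1489) and the lowest spike-in level (13.32), and their part in the pattern was not tested. At a detection level of 10, K had 5 replication genes and 8 mitotic genes and was matched by cell E in the first list and by cell A in the other. At a level of 8, cell G had 15 mitotic and 15 repair genes, against 12 and 15 in K. After quantile normalization K had 9 mitotic genes, against 11 in cell A.

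**Figure D5:**
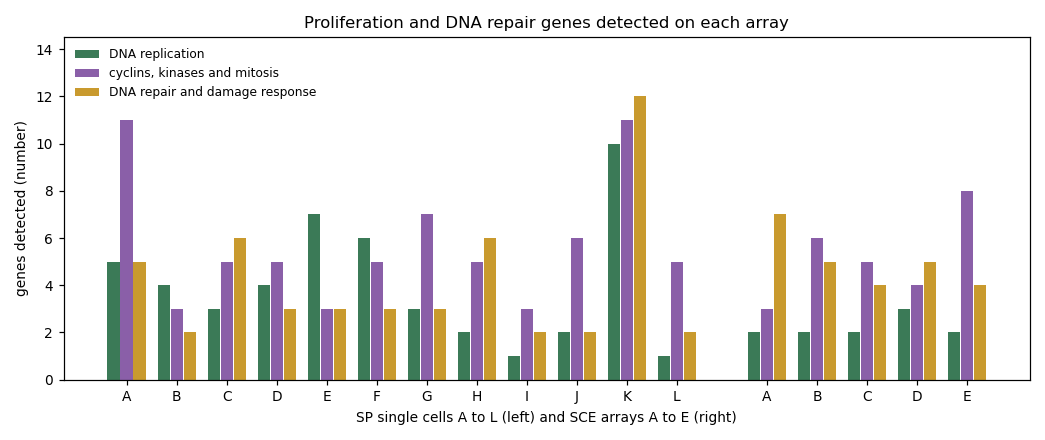
Number of genes detected (vertical axis) on each array (horizontal axis, SP single cells A to L left of SCE A to E) in the lists of DNA replication, of cyclins, kinases and mitosis, and of DNA repair. Cell K is highest in replication (10) and repair (12) and level with cell A in the mitotic list (11).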

How the data were processed

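RNA of 12 SP single cells and 5 SCE aliquots was amplified by the authors with a 3′-biased global RT-PCR, end-labelled with biotin and hybridised to Affymetrix MG-U74Av2 arrays. The deposited values were linear intensities, all above 0 and scaled to a common trimmed mean on each array; by the methods, probe intensities were read with Microarray Suite and levels computed by RMA, and which step gave the deposited scale is not given in the sources used here. Of 12488 probe sets, 66 controls were left out. Single genes were assigned to 10833 probe sets from the platform annotation (10817 matched by gene ID), several to 396 and none listed to 1193. The number of arrays limits the precision.

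Log2 intensities were tested for probe sets at 9 or more on at least 1 array. Means and absolute deviations (times the square root of n over n - 1, a Levene-type test) were compared by limma (version 3.58.1, under R 4.3.3), detection with Fisher's exact test and array summaries with exact permutation (Python 3.11.15, numpy 2.4.6, pandas 2.3.3, scipy 1.17.1, matplotlib 3.10.9), with Benjamini-Hochberg adjustment over 4659 probe sets. On simulated data the spread test found all-or-none patterns but not wider continuous spreads, so a spread that missed the threshold is not shown to be equal. Alternatives were other filters, a floor or pseudocount of log2 8, quantile or spike-in scaling, other detection levels, other deviations and leaving out arrays.

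Array groups came from the labels; the comparison, the gene lists and the tests were chosen with earlier results of these data known. Genes named were Cxcr4, Lmo2 and those the study followed, up to 10 per direction by mean and by spread and 8 by detection, the nearest and farthest of Cxcr4 and Lmo2, members of the top pairs and clusters, and list members detected in most or fewest cells; others are said to be chosen after their values were seen. For a gene with several probe sets the one with the highest mean is given unless stated.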

Additional observations from a re-analysis of the deposited data

Results flagged for a closer look

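The 5 SCE arrays were examined for a single array far from the other SCE arrays, in 108 groups of 5 values, and 12 had one. Chance alone would give about 1 in 20 groups for values with a normal spread that were not picked. Most of these groups were genes named in the text, some picked by their SCE levels, so the count cannot be set against that rate. SCE E was low for Hes6 (4.98, nearest 10.59), Anapc13 (10.65, nearest 12.84) and Prtn3 (7.67, nearest 9.42). SCE D was low for Desi1 (5.91, nearest 9.72) and in the mean level of the spike-in controls (13.46, nearest 14.14). SCE B was low for Psme1 (10.78, nearest 12.82) and Ewsr1 (5.22, nearest 9.80) and high for Ssna1 (8.85, nearest 7.42). SCE C was high for Ctsw (11.90, nearest 5.08), 1810030O07Rik (10.94, nearest 5.10) and Ociad1 (8.41, nearest 3.67), and SCE A for Ube2s (10.56, nearest 9.15).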

How the results depend on the processing

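The hemoglobin calls, 0 probe sets higher and 2 lower, were the same in number with no filter, quantile normalization, array weights and without cells B and G. With the array letter as a replicate block they were also 0 and 2; the letters pair nothing, and same-letter arrays deviated together by r of -0.0283 to 0.0216. With levels under 8 set to 8 the counts were 1 and 11, with the pseudocount 1 and 8, with spike-in scaling 0 and 6, without cells D and G 1 and 4, and without single arrays 0 and 1 to 5 (4 without cell D, 1 without SCE B and 5 without SCE D). The median difference was 0.17 with no filter, -0.73 with spike-in scaling and 0.26 as a ratio of arithmetic means, so its sign depended on the scale. In spread, 32 higher and 19 lower became 193 and 453 with the floor, 75 and 192 with the pseudocount, 20 and 17 with spike-in scaling, 4 and 14 with squared deviations (median 0.68), 5 and 0 with deviations from the median, and 36 and 0 with detection on at least 4 arrays. With the floor, 212 of the 453 had every cell at the floor and 71 of the 193 had every SCE array there. Without single arrays the counts were 23 to 48 and 19 to 33 (31 lower without cell K and 33 without SCE C). For Lmo2, the spread difference turned to 0.26 with spike-in scaling and ran between -0.50 and 0.013 without single arrays, with only SCE B turning its sign, and the mean difference ran between -0.43 and 0.11, likewise turned by SCE B. In detection 1 probe set alone could not pass after adjustment in a design of this size, and there were 1 to 8 higher and 34 to 75 lower at an unadjusted p under 0.05 without single arrays. The array difference in detected probe sets was -124.5 at level 8, -93.25 at level 10 and -517.8 with spike-in scaling. Pairs at 0.8 or more numbered 3 with quantile normalization, 29 at level 8 (largest cluster 8), 0 at level 10 and 20 to 31 without single cells (largest cluster 6 to 11). The causes of these shifts were not tested. Spike-in scaling and the settings without pairs of cells were chosen after seeing the data. Few arrays, and dim levels whose log2 values spread widely, limit all of these.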

Other observations

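Every cell held genes that were bright in it and detected on none of the other 16 arrays, and the 3 brightest of each cell were listed after the values were seen. Cell E held Evi2a, a gene at a site of viral integration in myeloid tumours, at 13.37 and 13.27 on its probe sets, which may share probes, against at most 8.60 and 5.97 on any other array. Cell F held Bad, a promoter of apoptosis, at 13.87 (at most 7.63 elsewhere), and cell D held Tgfbi, a matrix protein induced by TGF-β, at 13.17 (at most 8.13 elsewhere). Peg3, an imprinted zinc finger gene, was at 12.58 in cell K (at most 7.29 elsewhere), Atp7a, a copper transporter, at 13.61 in cell I (at most 8.69 elsewhere) and Zbtb20, a zinc finger repressor, at 12.23 in cell J (at most 7.17 elsewhere). A bright level in 1 cell has no replicate, and none of these was tested.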
